A study of Mus musculus with 2 samples.

Results

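Hoxb3, Hoxb5, Hoxb6, Hoxc4, Hoxc5, Hoxc6, Hoxc8, Hoxc9, Hoxc10 and Hoxc11 were followed in mouse limb-mesenchymal organoids, where distal and proximal areas had been captured separately. They were chosen by symbol, and the 10 genes were looked up among the 13916 protein-coding genes of the authors' deposited table of distal against proximal. Of the 10, only Hoxc4 had a row, and it rested on 1 sequenced count. The other 9 had no row and are counted as not detected. The transcripts of these clusters were thus nearly missing from a table that gave Hoxa and Hoxd genes means of up to 260 normalized counts.

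Per the labels, mouse embryonic limb mesenchymal cells of the Slc:ICR genotype were cultured as organoids for 48 h with the growth factors Fgf8b and Wnt3a. At day 2, 4 cultures gave the 5 organoids that were frozen and sectioned. Both sides shared strain, medium and time, and the labels used here give neither the embryonic stage nor whether the cells came from forelimb or hindlimb. Photo-isolation chemistry, in which ultraviolet light selects areas of a section, gave 5 distal and 5 proximal regions, each with its own barcode. Each side's 5 regions went into 1 library, so the side and the library cannot be told apart, and p-values measure the spread between regions, which may come from the same organoids.

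Hox genes encode homeodomain transcription factors and lie in 4 clusters, Hoxa to Hoxd, in which the order of the genes follows the order in which they are switched on along the body axis. Genes with the same number in different clusters are paralogs. In the limb bud the late Hoxa and Hoxd genes pattern the segments from shoulder to digits. Hoxb and Hoxc genes are better known for setting the position and the type of the limb in the flank, and for patterning vertebrae and spinal cord.

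Limb mesenchyme markers were measured in these regions. All 11 markers listed had a row, with means in the authors' deposited table from 1.55 for Tbx2 to 159 for Prrx1, a homeobox gene of limb mesenchyme. All 11 muscle markers had a row too, so a row alone does not single out mesenchyme. Of the mesenchyme markers, 2 had an adjusted p under 0.05, beside 0.977% of all genes. Msx1 was higher in distal (log2 change 1.12, adjusted p = 2.09e-08) and Pdgfra in proximal (log2 change -0.86, adjusted p = 3.94e-06).

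Hoxc4, which lies at the early end of its cluster and belongs to a paralog group that binds the forelimb enhancer of Tbx5, is annotated at chr15:103018934-103036852 on the plus strand in GRCm38. Its mean in the authors' deposited table was 0.0511 normalized counts, a value that corresponds to 1 count in 1 region. That region was a proximal one with a size factor of 1.956. The other 4 proximal regions and all 5 distal regions held 0 counts. A gene at this level cannot be placed on either side, since both sides stand under the 3 counts that a count of 0 allows.

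The deposited statistics for Hoxc4 show the same lack of information. The authors' deposited table listed a log2 change of 1.19 ± 3.16 (SE) towards distal, with adjusted p = 0.991, and the 95% interval computed from it ran from -5.01 to 7.38. The sign went against the side of the single count. Every one of the 1011 genes with 1 count in a proximal region and none elsewhere had this same log2 change within 1e-06 in the authors' deposited table, Hoxc4 among them. Of the 13916 genes, 714 (5.13%) had a mean no higher than that of Hoxc4.

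With Hoxc4 as the 1 member tested, 0 of 1 passed the call limit of 0.05 on the deposited adjusted p, in a table whose columns are those of DESeq2, and 0 of 1 had an unadjusted p under 0.05. Over all genes of the authors' deposited table the called share was 0.977% (136 genes), and 6.07% had an unadjusted p under 0.05. The median log2 change of all genes in the authors' deposited table was 0.07. With 1 member tested, no share of members can be read against these.

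The 3 Hoxb members all had no row. Hoxb3, which acts in the hindbrain and pharyngeal arches, is annotated at chr11:96323326-96347930. Hoxb5, known for a part in setting the position of the shoulder girdle, lies at chr11:96303336-96306121. Hoxb6, expressed early in lateral plate and limb mesoderm, lies at chr11:96292476-96301569. All 3 are on the plus strand in GRCm38.

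Among the 7 Hoxc members, 6 had no row, and they run in order along the plus strand of chromosome 15. Hoxc11 at chr15:102954427-102957708 and Hoxc10 at chr15:102966796-102971893 are known from the hindlimb and the lumbar cord. Hoxc9 at chr15:102976439-102985099 is known to repress Tbx5 behind the forelimb. Hoxc8 at chr15:102990607-102994111 acts in vertebrae and brachial motor neurons, and Hoxc6 at chr15:102998257-103011881 is expressed at forelimb level. Hoxc5, annotated at chr15:102967443-103017429, has a transcript that starts inside Hoxc10 and spans the genes between them.

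The gap covered both clusters and not the listed members alone. Of all 19 annotated Hoxb and Hoxc genes, 2 (10.5%) had a row. The second was Hoxb1, a hindbrain gene, again with 1 count in a proximal region and 0 counts in the other regions. Hoxb2, Hoxb4, Hoxb7, Hoxb8, Hoxb9, Hoxb13, Hoxc12 and Hoxc13 had no row. In the Hoxa cluster 7 of 11 genes had a row and in the Hoxd cluster 6 of 9, together 65.0%, close to the 63.2% of 21951 protein-coding genes annotated in GENCODE M21. The difference between the clusters was not tested.

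**Figure D1:**
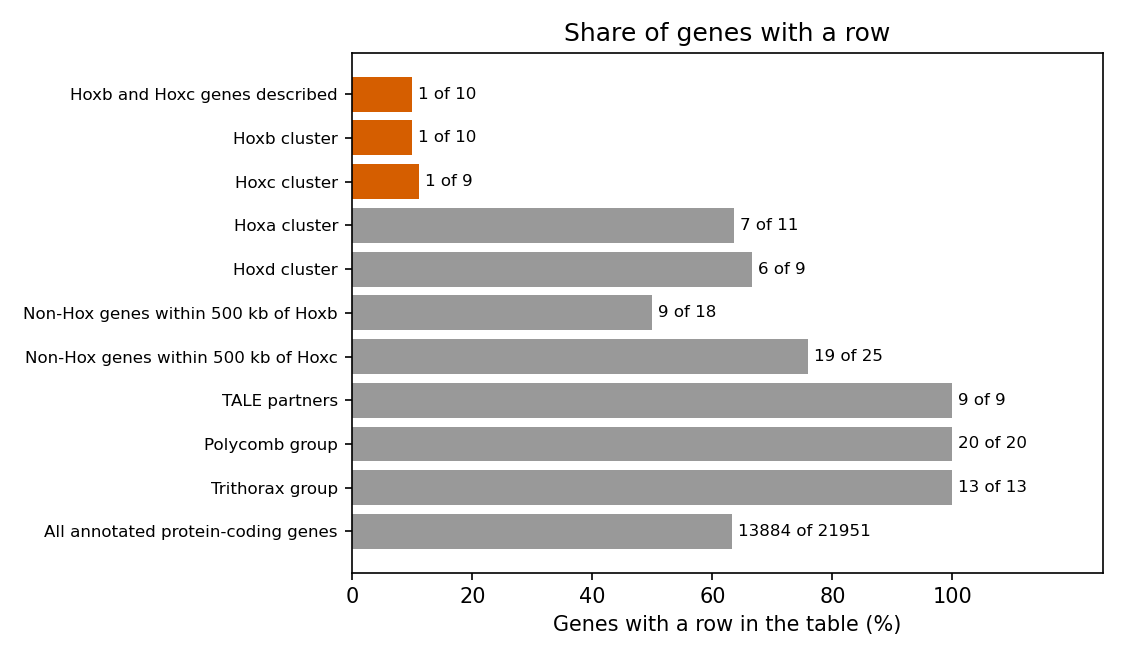
Share of genes with a row in the authors' deposited table, in percent, for the Hoxb and Hoxc genes described, whole clusters, their neighbours, partner lists and all annotated protein-coding genes; the counts stand beside the bars. The 3 Hoxb and Hoxc bars (orange) sit between 10.0 and 11.1%, and the Hoxa and Hoxd bars between 63.6 and 66.7%.

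Other protein-coding genes around the 2 clusters were measured in part. Within 500 kb of the Hoxc cluster 19 of 25 other protein-coding genes had a row, and within 500 kb of the Hoxb cluster 9 of 18. In the authors' deposited table the top mean near Hoxb was 134 for Cbx1, and near Hoxc it was 90.9 for Cbx5, both heterochromatin proteins and both picked for their level. Calcoco1 and Smug1, the nearest protein-coding genes on either side of the Hoxc cluster, had means of 13.7 and 3.71 in the authors' deposited table. On the Hoxb side the nearest neighbours, Ttll6 and Skap1, had no row.

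What a missing row means is limited in 3 ways. Genes that every cell uses, such as Rpl29, Cox5a and Snrpf, chosen after the table was seen, had no row either, so a missing row does not by itself show that a transcript was absent. No row lacked a p-value, and whether genes without one were removed is not given in the sources used here. Reads shared between overlapping genes may also go uncounted: of genes with over 50% of their exon bases inside another gene on the same strand 16.7% had a row, and of those with such overlap on the opposite strand 28.6%.

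Such overlap was small for most of the 9 members with no row. It covered at most 8.70% of exon bases on the same strand, the value of Hoxc10, and 5.37% for Hoxc5. On the opposite strand 52.9% of the exon bases of Hoxb3 and 3.59% of those of Hoxb5 lay under antisense genes. For 8 of the 9, overlap was no more than 10% on either strand, and 64.0% of all protein-coding genes with so little overlap had a row. The part of overlap in the result was not tested.

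Depth bounds the levels that could have been missed. By estimate the regions held 46991 to 118978 counts in distal and 214774 to 345649 in proximal, or 1798878 in all. Each estimate is a region's size factor times the summed mean of all genes, which takes the regions to be alike in make-up. If a missing row stands for 0 counts in all 10 regions, levels of up to 1.02 normalized counts in distal and 0.311 in proximal remain possible. The limit over both sides is 0.238, and it takes the level to be the same on both sides. A gene with unlike sides could have a higher mean. These limits cover counting error only. Divided by exon length, the limit over both sides was 0.0561 normalized counts per kb for Hoxb3, the longest of the 9, and 0.125 per kb for Hoxc10, the shortest. The distal limit was the wider one, as the size factors summed to 2.93 in distal and 9.65 in proximal, a ratio of 3.30.

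The paralogs in the other clusters show what the same regions held for each Hox number. The limits over both sides, in mean normalized counts per kb of exon, hold only if a missing row stands for 0 counts. They also take the level to be the same on both sides. Of the 13 Hoxa and Hoxd genes with a row, 12 lay above all of these limits of the 9 members. Hoxa7, at 0.110 per kb, lay among the limits. Levels in distal alone were not set against the wider distal limit. The labels do not say which part of a transcript is counted, so division by exon length is approximate.

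**Figure D2:**
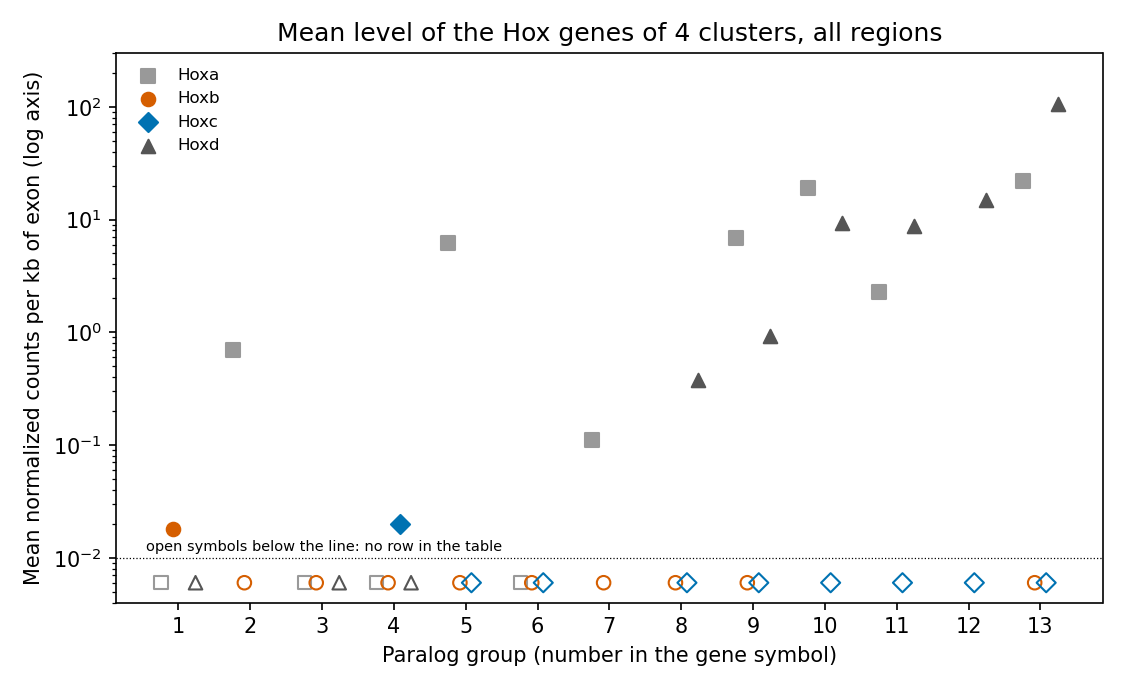
Mean normalized counts per kb of exon over all regions (log axis) for each Hox gene, by paralog group and cluster, with open symbols under the dotted line for genes with no row. Hoxc4 and Hoxb1 lie at 0.0199 and 0.0178 per kb, and Hoxd13 at 105 per kb.

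For the paralogs of Hoxb3 no gene had a row, as Hoxa3 and Hoxd3 were missing too. Hoxa4, Hoxb4 and Hoxd4, the paralogs of Hoxc4, had no row either. Other genes on the same strand covered 62.3% of the exon bases of Hoxd3 and 52.3% of those of Hoxd4. Of all genes with over 50% such overlap, 16.7% had a row. For Hoxa3 and Hoxa4, also with no row, such overlap was 8.01% and 0%. The part of overlap in the missing rows of Hoxd3 and Hoxd4 was not tested. Hoxb5 and Hoxc5 have Hoxa5 as their paralog, at 6.22 normalized counts per kb. Hoxa6, the paralog of Hoxb6 and Hoxc6, had no row, so the whole group was unseen.

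In the later groups the Hoxc genes were missing where Hoxa or Hoxd paralogs were measured. Hoxb8 and Hoxb9, the Hoxb paralogs of Hoxc8 and Hoxc9, had no row either. Hoxd8 stood at 0.381 normalized counts per kb beside Hoxc8, with 1 distal count and 15 proximal counts. Beside Hoxc9, Hoxa9 stood at 6.81 and Hoxd9 at 0.925 per kb. Beside Hoxc10, Hoxa10 stood at 19.2 and Hoxd10 at 9.38 per kb. Beside Hoxc11, Hoxa11 stood at 2.30 and Hoxd11 at 8.77 per kb.

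None of these paralogs of a listed member was called between the sides. In the authors' deposited table Hoxa10 came nearest, at a log2 change of -0.83 ± 0.24 (SE) with adjusted p = 0.0609. It passed 0.05 when the changes were centred on the median of all genes (adjusted p = 0.0243) or when genes with means under 10 were left out of the adjustment (adjusted p = 0.0192). The same table put Hoxa5 at a log2 change of -0.78 (adjusted p = 0.813) and Hoxa11 at -2.34 (adjusted p = 0.144). Hoxd10 stood at 0.02 in the authors' deposited table, with an interval from -0.57 to 0.61, and its sign changed on centring. The calls among Hox genes were Hoxd12 and Hoxd13, whose groups have no listed Hoxb or Hoxc member.

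**Figure D3:**
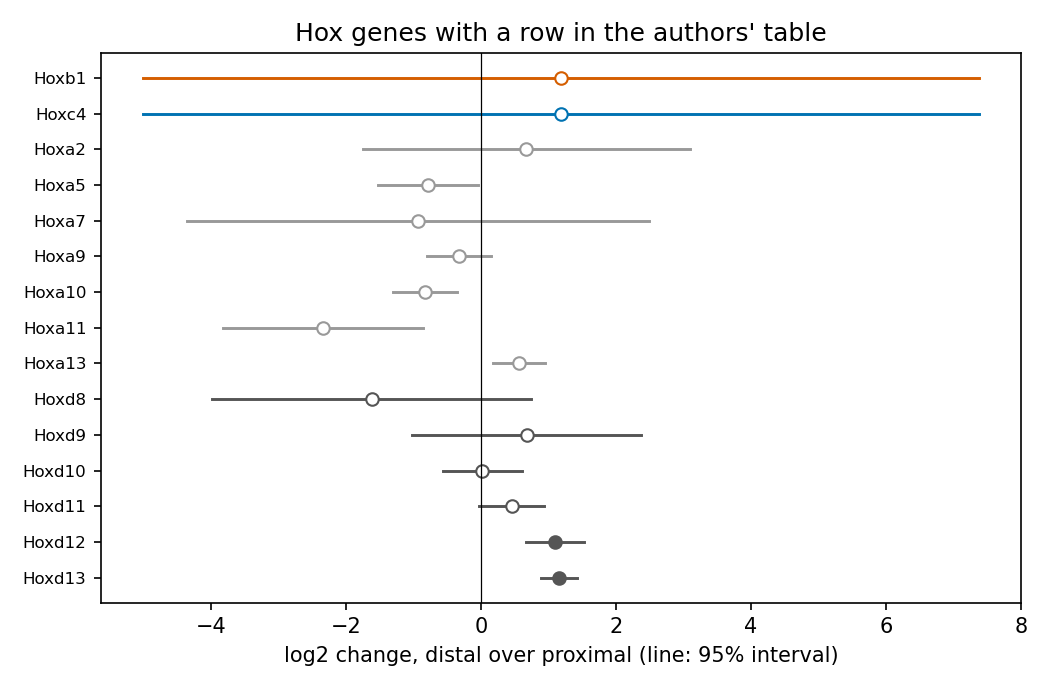
The log2 change of distal over proximal in the authors' deposited table for each Hox gene with a row, with lines for the 95% interval and filled points for an adjusted p under 0.05. Hoxb1 and Hoxc4 share 1 value and an interval from -5.01 to 7.38, and the filled points are Hoxd12 and Hoxd13.

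Genes tied to the known roles of these Hox genes were then set beside them. Tbx5, the forelimb gene acted on by Hoxc4, Hoxc5 and Hoxc9, had a mean of 21.5 in the authors' deposited table and was higher in proximal, at a log2 change of -1.41 ± 0.32 (SE, adjusted p = 0.00199). Its levels were 11.7 normalized counts in distal and 31.3 in proximal. Of the hindlimb genes, expressed where Hoxc10 and Hoxc11 are known to be, Tbx4 had a mean of 5.68 in the authors' deposited table and was not called (adjusted p = 0.991). Pitx1 had 22 proximal counts, all in 3 of the 5 regions, and 0 distal counts, and the authors' deposited table gave it adjusted p = 0.991. Isl1 had 1 count. Of the 6 genes in the limb identity list, which also held Islr2 and Lin28b, all had a row and 1, Tbx5, was called. Lin28b had 4 proximal counts and 0 distal counts.

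Most partners and regulators of Hox genes had a row, some of them on counts as few as that of Hoxc4. All 9 TALE homeobox genes, whose proteins bind DNA together with Hox proteins, had a row. Of them Pbx3 was called, higher in proximal by the authors' deposited table (log2 change -2.08, adjusted p = 0.00212), while Meis1 had 1 count and Meis2 and Meis3 had 2 each, all in proximal. Pbx4 had 6 proximal counts and 0 distal counts. All 20 Polycomb group genes, which keep Hox genes silent, had a row and 0 were called. Cbx7 rested on 1 count, and Jarid2 had the top mean of that list, 78.3 in the authors' deposited table. All 13 Trithorax group genes, which keep Hox genes active, had a row and 0 were called, the highest mean being 41.1 for Psip1. By unadjusted p under 0.05 the number was also 0 in both lists. Over all genes 0.977% were called and 6.07% had an unadjusted p under 0.05. In lists this short, 0 calls cannot be told from that called share.

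Inputs to Hox genes in the embryo were mixed. Cdx1, Cdx2 and Cdx4, activators of Hox genes in the trunk, and Rarb had no row. The retinoic acid receptor gene Rarg was called, higher in distal by the authors' deposited table (adjusted p = 1.89e-06), with levels of 26.7 normalized counts in distal and 6.87 in proximal and a 95% interval of the log2 change from 1.31 to 2.61. The other 8 genes of that list with a row were not called, Tgfbr1 among them, whose mean of 24.0 in the authors' deposited table was their top value.

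Other cell types that carry Hoxb and Hoxc transcripts were looked for by their markers. Of 12 markers of neural tube and neurons, 9 had a row and 0 were called. Dcx, a gene of migrating neurons, had the top mean of the list in the authors' deposited table, 12.9, with a log2 change of -1.01 and adjusted p = 0.499. Pax6, Nes and Stmn2 had means of 2.02, 2.13 and 2.16 there, while Sox1, Sox2 and Olig2 had no row and Tubb3 and Elavl3 had 1 count each. The list summed to 15.0 normalized counts in distal and 25.7 in proximal, of which Dcx made 8.55 and 17.3. The part of these cells in the Hoxb and Hoxc result was not tested. Neural crest and glia markers had a row for 4 of 6, surface ectoderm for 4 of 9, and blood and endothelium for 6 of 10, with 0 called in each. For these lists and the neural one, 0 calls cannot be told from the 0.977% called over all genes. Muscle markers moved with the side: 4 of 11 were called, all higher in proximal, and the list summed to 12.3 normalized counts in distal and 114 in proximal. Tbx5 and Pbx3 were also higher on that side, and the part of muscle cells in this was not tested. The single Hoxc4 and Hoxb1 counts were proximal like those of 77.3% of the 1308 genes with 1 count in all, and 76.7% of the summed size factors were proximal. In sections of mixed cells, fewer cells of a type and less RNA per cell cannot be told apart.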

How the data were processed

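The measurements are from 1 distal and 1 proximal library of 5 barcoded regions each. Per the file headers, the deposited table has DESeq2's column names, with 1 row per protein-coding gene, for a comparison run by the authors. The mean is a signal in normalized counts that the authors averaged over regions. The log2 change and its standard error, the statistic (a score) and the p-value with its adjusted p were deposited by the authors. Genome builds mm10 and GRCm38 are named in the submitters' processing notes; the aligner, counting and annotation are not given in the sources used here.

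No count test was run, since the table holds no values per region. Size factors were read from the 10 lowest means shared by at least 20 genes that were no sum of lower ones, and a region's side from how the authors' log2 change moved between 1 and 2 counts there. Region counts were taken where 1 set of counts matched a mean up to 1.3. Side levels of other genes follow from the mean and the log2 change. The reading of size factors and region counts was tested on simulated data, and the reading of sides was not. The simulation held extra genes near 1 count, and counts were sought there only over the lower part of the range up to 1.3. The upper part, which holds Hoxd8 and Pitx1, was not covered. Positions, exon lengths and overlaps come from GENCODE M21 (GRCm38), which holds 13915 of the 13916 identifiers. Intervals are normal 95% intervals from the deposited standard error. Python 3.11.15, pandas 2.3.3, numpy 2.4.6 and scipy 1.17.1 were used.

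The members and lists were chosen with earlier results of these data known. The genes named are all members and genes of the Hoxa, Hoxd, other Hoxb and Hoxc and TALE lists. Of the Polycomb, Trithorax, input and limb identity lists, the called genes and the one with the highest mean are named. Others in the text (Tbx4, Pitx1, Isl1, Islr2, Lin28b, Cbx7, Ash1l, Bmi1, genes with no row, marker and neighbouring genes) were chosen after their values were seen. Not every called marker gene is named.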

Additional observations from a re-analysis of the deposited data

How the results depend on the processing

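The 1 member with a row stayed at 1 when members were matched by Ensembl identifier, an alternative chosen after seeing the data. The number of members called was 0 at thresholds of 0.01 and 0.1, with a log2 change of at least 1 required, with either centring, and with adjustment over the listed genes. Adjustment over genes with means from 10 upwards, and medians of members with a mean from 1 upwards or with both sides at their bound, gave no value, since Hoxc4 falls under each limit. The Hoxc4 levels computed from the mean and log2 change were 0.0710 in distal and 0.0312 in proximal, and moved to 0 and 0.102 with recovered region counts. The calls among the partner, regulator, limb identity and other Hox genes numbered 5 (Hoxd12, Hoxd13, Pbx3, Rarg and Tbx5), and 5 to 7 under the alternatives. Of 394 values of 115 other genes under an alternative, 387 kept direction and call, 2 became stronger (Hoxa10, -0.89 centred on the median of all genes and -0.83 with adjustment over means from 10 upwards) and 5 reversed. Centring on the median of all genes (0.07) reversed Hoxd10 to -0.047, Pbx2 to -0.020, Ash1l to -0.041 and Tbx2 to -0.017, and centring on the upper part of the genes by mean reversed Bmi1 to 0.018, all by the shift itself. No paired analysis was possible because the columns used carry no region or replicate number, and no region could be left out for that reason.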
